A study of Mus musculus with 32 samples.

Results

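The complement genes described here are the 9 genes C1qa, C1qb, C1qc, C1ra, C1s1, C4b, C3, Cfb and Serping1, out of 54532 genes in the count table. They were taken by gene symbol, as the early components of the classical pathway, the central component C3, the alternative pathway protease factor B and 1 inhibitor. All 9 were among the 17121 genes that passed a filter on low counts. Their RNA was measured by RNA-seq in whole tibialis anterior, a fast muscle of the shin, of C57BL/6J mice. Old mice received BI01 and were examined on days 7 and 35 after injury by BaCl. BI01 is named in the series as a senolytic, an agent intended to clear senescent cells, and the title of the series names p53 and MDM2 binding. Old mice that received vehicle provided 3 groups, without injury, on day 7 and on day 35, and young mice that received vehicle provided the same 3. Each of these 8 groups had 4 libraries. The column and library names of the uninjured groups also carry PBS. The labels do not say that every library is a separate animal, so p-values measure the spread between libraries. The sources used here give neither ages nor the dose of BI01, and no transgene or mutant allele is named.

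Complement is a cascade of secreted proteins that tags cells and debris for removal by phagocytes. C1q binds a target and switches on the proteases C1r and C1s, which cleave C4 and C2 to form an enzyme that cleaves C3. Factor B forms the corresponding enzyme of the alternative pathway, and C1 inhibitor shuts off C1r and C1s. The liver makes most complement of the blood, whereas C1q comes mainly from macrophages and related cells, and fibroblasts are among the cells that make C1r, C1s, C3 and C1 inhibitor. After a muscle injury, macrophages clear the dead fibres while new fibres form.

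Expression is given as CPM, the counts of a gene per 1000000 counts of the library after scaling by TMM, a factor that offsets differences in RNA composition. The libraries held 14129350 to 30439358 counts. A gene was called at a Benjamini-Hochberg adjusted p under 0.05 in edgeR's quasi-likelihood test, fitted to all 32 libraries and adjusted over the 17121 genes. Fast fibre markers summed to 196527 to 280012 CPM in uninjured muscle, so the defining markers of the labelled tissue were present, and hepatocyte markers summed to at most 0.965 CPM in any library. The uninjured columns of the count table carry 35d in their names, as the day 35 columns do. The sources used here do not state whether the day 7 libraries were collected or sequenced as a separate set. If they were, injury at day 7 and that set cannot be told apart in comparisons of day 7 with uninjured muscle. Time after injury and such a set could then not be told apart between day 7 and day 35 either. With scaling by library size alone the log2 fold changes of all genes at day 7 had medians of 1.08 in old BI01 muscle, 1.15 in old vehicle and 1.05 in young muscle, against 0.13, 0.14 and 0.17 with TMM. Changes below are relative to the TMM scaling.

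The 3 genes of C1q lie side by side on the minus strand of chromosome 4 in mm10. C1qb (ENSMUSG00000036905) spans 136880129 to 136886187, C1qc (ENSMUSG00000036896) 136889804 to 136893065 and C1qa (ENSMUSG00000036887) 136895917 to 136898803, together 18.7 kb with no other gene of the table inside. C1ra (ENSMUSG00000055172, plus strand, 124512405 to 124523443) and C1s1 (ENSMUSG00000038521, minus strand, 124530345 to 124542359) are neighbours on chromosome 6 with 6901 bases between them. C4b (ENSMUSG00000073418, 34728380 to 34743882), Cfb (ENSMUSG00000090231, 34856374 to 34862518) and C3 (ENSMUSG00000024164, 57203970 to 57228136) lie on chromosome 17, and Serping1 (ENSMUSG00000023224, minus strand, 84765387 to 84775444) on chromosome 2. Counts are per gene. C4b, C1s1 and C1ra have near copies in the mouse, C4a, C1s2 and C1rb, which took 0.965%, 0.389% and 0.182% of the counts of each pair. The sources used here do not state how the authors' counting treated reads shared by such copies. The counts of these 3 members are therefore uncertain by an amount that is not known and that these shares do not bound.

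The RefSeq promoter table for GRCm38.p6, the assembly known as mm10, had windows for 5 of the 9 members, from 250 bases before to 50 bases after the gene start. They were searched on both strands for the ISRE core GAAANNGAA and the GAS core TTCNNNGAA of interferon-driven genes, NF-kB as GGANTTTCC, C/EBP as TTNNGCAAT, and GAGGAA, a core bound by ETS factors such as PU.1 of macrophages. The sequences shown are the stretches just upstream of the genes as the count table draws them, for the pair of C1q genes with a window, for C1s1, which changed less at day 7, and for C3, which was not called at day 7 in young muscle. They are read 5′ to 3′ on the strand of the gene, and capitals mark a motif found.
C1qb: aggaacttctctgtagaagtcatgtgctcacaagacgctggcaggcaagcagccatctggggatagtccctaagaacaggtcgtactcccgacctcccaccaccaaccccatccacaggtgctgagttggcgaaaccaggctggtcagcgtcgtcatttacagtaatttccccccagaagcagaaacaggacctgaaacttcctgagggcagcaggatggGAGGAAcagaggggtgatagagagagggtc
C1qc: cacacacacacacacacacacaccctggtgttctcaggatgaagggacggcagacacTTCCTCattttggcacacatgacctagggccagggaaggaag
C1s1: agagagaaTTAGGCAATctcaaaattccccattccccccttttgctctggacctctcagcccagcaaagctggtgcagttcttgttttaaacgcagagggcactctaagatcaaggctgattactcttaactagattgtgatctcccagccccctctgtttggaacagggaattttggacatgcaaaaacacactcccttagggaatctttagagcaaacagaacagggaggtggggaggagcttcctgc
C3: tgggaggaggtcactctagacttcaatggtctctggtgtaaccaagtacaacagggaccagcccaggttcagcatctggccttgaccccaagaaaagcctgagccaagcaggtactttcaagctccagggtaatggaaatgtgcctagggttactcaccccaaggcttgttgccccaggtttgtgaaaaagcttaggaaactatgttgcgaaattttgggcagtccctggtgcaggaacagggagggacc
These stretches are chr4:136886201-136886450 for C1qb, chr4:136893066-136893164 for C1qc, chr6:124542360-124542609 for C1s1 and chr17:57228137-57228386 for C3, each on the minus strand. C1qb held GAGGAA 30 bases before its RefSeq start, and C1qc held it on the other strand, as TTCCTC, 193 bases before. GAGGAA was in 28.3% of all 32851 windows of the table. C1s1 held a C/EBP match, TTAGGCAAT, 242 bases before the RefSeq start of the window shown, a motif in 2.18% of windows. Another C1s1 window, with an upstream stretch of chr6:124542360-124542571, does not reach this match and held none of the motifs. C1ra held TTCCCTGAA, a GAS core, 32 bases after its start and TTCCTC 44 bases after. The GAS core was in 8.3% of windows, the ISRE core in 8.56% and NF-kB in 1.25%. None of these motifs was in the C3 window.

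**Figure D1:**
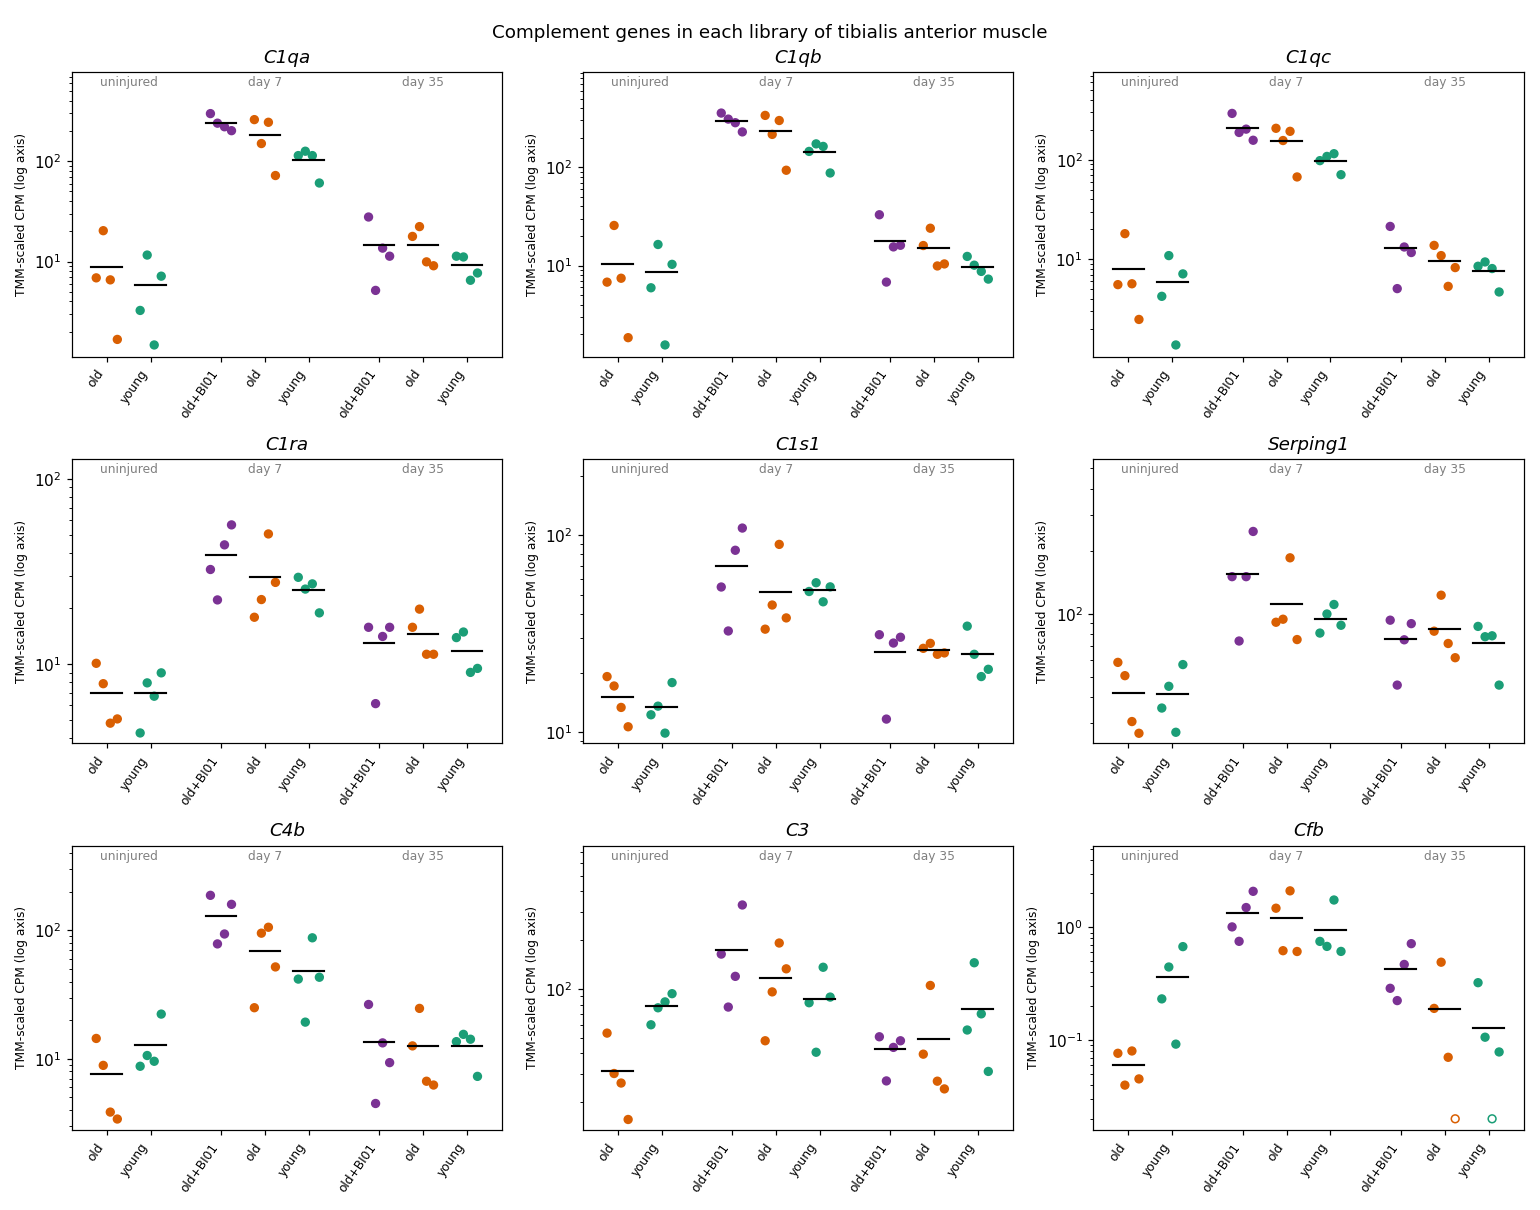
TMM-scaled CPM (log axis) of each complement gene in the 4 libraries of each group, uninjured, at day 7 and at day 35, with old BI01 muscle in purple, old vehicle muscle in orange and young vehicle muscle in green. Points are libraries, lines are group means, and the 2 open points of Cfb are libraries with 0 counts drawn at the lower edge. C1qa is at 60.7 CPM or more in every library of day 7, whereas C3 of young muscle overlaps across the 3 states.

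At day 7 the C1q genes had the largest fold changes of the 9 in every arm, with Cfb close behind in old muscle, and the 3 chains moved together. C1qa, the A chain of C1q, was at 299, 240.0, 221 and 202 CPM in old BI01 muscle at day 7 and at 260.4, 150.3, 245 and 72.1 CPM in old vehicle muscle at day 7. It was at 6.87, 20.3, 6.56 and 1.67 CPM in old uninjured muscle. In young muscle it was at 114, 126, 114 and 60.7 CPM at day 7, against 3.25, 11.6, 1.47 and 7.14 CPM uninjured. Every library at day 7 lay above every uninjured library, and 1 library of each uninjured group, library 7 of the old and library 2 of the young, was well above its group. In bulk muscle, more cells of a type and more RNA per cell cannot be told apart. The fold change of C1qa was 26.8 in old BI01 muscle (log2 4.75, SE 0.63, adjusted p = 3.44e-07), 20.3 in old vehicle muscle (log2 4.34, SE 0.62, adjusted p = 9.22e-07) and 17.8 in young muscle (log2 4.15, SE 0.63, adjusted p = 2.67e-06).

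C1qb, the B chain, was at 356, 309, 284 and 229 CPM in old BI01 muscle and at 337, 216, 299 and 93.3 CPM in old vehicle muscle at day 7, against 6.79, 25.6, 7.44 and 1.85 CPM in old uninjured muscle. In young muscle it was at 145, 173, 163 and 87.5 CPM at day 7, against 5.95, 16.4, 1.56 and 10.3 CPM uninjured. The same libraries were high and low as for C1qa, and no day 7 library overlapped an uninjured one. C1qb rose 27.9-fold in old BI01 muscle (adjusted p = 4.41e-07), 22.4-fold in old vehicle muscle (adjusted p = 9.01e-07) and 16.7-fold in young muscle (adjusted p = 4.27e-06). C1qc, the C chain, averaged 209.9 ± 58.0 CPM in old BI01 muscle and 156 ± 62.9 CPM in old vehicle muscle at day 7, against 7.96 ± 6.93 CPM in old uninjured muscle (SD, n = 4 each). It averaged 98.1 ± 19.6 CPM in young muscle at day 7, against 5.91 ± 4.05 CPM uninjured. Its rises of 25.9-fold, 19.2-fold and 16.6-fold in old BI01, old vehicle and young muscle were called (adjusted p = 4.55e-08, 1.40e-07 and 4.63e-07). Without library 7 of the old uninjured group, the log2 fold changes of C1qa, C1qb and C1qc were 5.62, 5.81 and 5.55 in old BI01 muscle and 5.21, 5.50 and 5.12 in old vehicle muscle.

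The proteases that C1q switches on rose less. C1s1, which encodes C1s, was at 54.6, 32.6, 84.0 and 109 CPM in old BI01 muscle and at 33.3, 44.2, 90.0 and 38.0 CPM in old vehicle muscle at day 7, against 19.1, 17.1, 13.3 and 10.6 CPM in old uninjured muscle. It was at 51.8, 57.4, 45.9 and 54.7 CPM in young muscle at day 7, against 12.2, 13.5, 9.84 and 17.8 CPM uninjured. Day 7 and uninjured libraries did not overlap in any arm, and the young day 7 libraries lay closest together. C1s1 rose 4.67-fold in old BI01 muscle (log2 2.22, SE 0.33, adjusted p = 1.19e-06), 3.43-fold in old vehicle muscle (log2 1.78, SE 0.32, adjusted p = 2.46e-05) and 3.93-fold in young muscle (log2 1.97, SE 0.33, adjusted p = 8.06e-06). C1ra, which encodes C1r, was at 32.4, 22.2, 44.0 and 56.4 CPM in old BI01 muscle and at 17.9, 22.3, 50.4 and 27.6 CPM in old vehicle muscle at day 7, against 10.1, 7.84, 4.80 and 5.06 CPM in old uninjured muscle. It was at 29.4, 25.4, 27.1 and 18.9 CPM in young muscle at day 7, against 4.25, 7.92, 6.71 and 8.97 CPM uninjured. No libraries overlapped here either, and C1ra rose 5.57-fold (adjusted p = 3.24e-07), 4.24-fold (adjusted p = 3.88e-06) and 3.63-fold (adjusted p = 2.67e-05) in old BI01, old vehicle and young muscle.

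C4b, the mouse C4 that C1s cleaves, was called in the 3 arms with a wide spread among libraries. It was at 188, 78.6, 93.9 and 159.9 CPM in old BI01 muscle and at 25.0, 95.3, 106 and 52.0 CPM in old vehicle muscle at day 7, against 14.4, 8.88, 3.84 and 3.39 CPM in old uninjured muscle. In young muscle it was at 41.8, 19.3, 87.7 and 43.2 CPM at day 7, against 8.74, 10.6, 9.56 and 22.3 CPM uninjured. The old groups did not overlap, whereas the lowest young library at day 7 lay under the highest young uninjured one. C4b rose 17.1-fold in old BI01 muscle (log2 4.10, SE 0.62, adjusted p = 2.91e-06), 9.18-fold in old vehicle muscle (log2 3.20, SE 0.60, adjusted p = 4.88e-05) and 3.76-fold in young muscle (log2 1.91, SE 0.58, adjusted p = 0.00584). The day 7 response of C4b differed between old vehicle and young muscle by 1.29 on the log2 scale (SE 0.80), which was not called (adjusted p = 0.342). The near copy C4a, at most 1.44 CPM in any library, was also called higher in old BI01, old vehicle and young muscle (adjusted p = 0.0186, 0.0346 and 0.0112). These calls were lost without library 6 or 7 of the old uninjured group in old BI01 muscle (adjusted p = 0.0517 and 0.0655), without library 6, 7 or 8 of that group or library 7, 9 or 10 of day 7 in old vehicle muscle (adjusted p = 0.0542 to 0.109), and without library 6 of day 7 in young muscle (adjusted p = 0.0555). limma voom called C4a in neither old vehicle nor young muscle (adjusted p = 0.194 and 0.0525).

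C3, the protein on which the pathways meet, was called at day 7 in old muscle and not in young muscle. It was at 164, 77.2, 119.5 and 329.8 CPM in old BI01 muscle and at 47.8, 95.8, 192 and 133 CPM in old vehicle muscle at day 7, against 53.3, 30.0, 26.2 and 15.6 CPM in old uninjured muscle. It was at 82.1, 40.6, 136 and 89.0 CPM in young muscle at day 7, against 60.0, 76.4, 83.1 and 93.4 CPM uninjured. Old BI01 muscle did not overlap old uninjured muscle, old vehicle muscle overlapped it by 1 library on each side, and the young groups were intermingled. The fold change was 5.53 in old BI01 muscle (log2 2.47, SE 0.54, adjusted p = 0.000297) and 3.76 in old vehicle muscle (log2 1.91, SE 0.53, adjusted p = 0.00274). In young muscle the log2 fold change was 0.15 (95% interval -0.90 to 1.20, adjusted p = 0.810). The day 7 response of C3 was larger in old than in young muscle by 1.76 on the log2 scale (SE 0.73), which did not pass the test over all genes (adjusted p = 0.134).

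Cfb, factor B, was the least expressed of the 9 and rested on few counts. Its 4 old uninjured libraries held 1 count each, and the 4 young uninjured libraries held 16 counts together. It was at 1.01, 0.752, 1.50 and 2.09 CPM in old BI01 muscle and at 1.48, 0.621, 2.11 and 0.611 CPM in old vehicle muscle at day 7, against 0.0763, 0.0398, 0.0800 and 0.0452 CPM in old uninjured muscle. In young muscle it was at 0.751, 0.678, 1.75 and 0.612 CPM at day 7, against 0.232, 0.445, 0.0920 and 0.675 CPM uninjured. The old groups stood apart by a wide gap, and the young groups overlapped. Cfb rose 21.3-fold in old BI01 muscle (log2 4.41, SE 0.84, adjusted p = 3.72e-05) and 19.2-fold in old vehicle muscle (log2 4.26, SE 0.84, adjusted p = 5.33e-05), both fitted values that rest on those 4 counts. In young muscle its log2 fold change of 1.39 was not called (SE 0.71, adjusted p = 0.0872), and it was called without library 4 of the young uninjured group (1.86, adjusted p = 0.0496) and with scaling by library size alone (2.27, adjusted p = 0.00625). The day 7 response of Cfb was larger in old muscle by 2.87 on the log2 scale (SE 1.10, adjusted p = 0.0984).

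Serping1, which encodes C1 inhibitor, had the smallest rise among the members called in all 3 arms. It was at 151, 74.1, 151 and 249 CPM in old BI01 muscle and at 91.2, 94.3, 186 and 75.3 CPM in old vehicle muscle at day 7, against 58.5, 50.5, 30.4 and 26.7 CPM in old uninjured muscle. It was at 80.9, 99.9, 111 and 88.2 CPM in young muscle at day 7, against 35.3, 44.9, 27.0 and 57.1 CPM uninjured. The groups did not overlap in any arm. Serping1 rose 3.77-fold in old BI01 muscle (adjusted p = 1.61e-05), 2.69-fold in old vehicle muscle (adjusted p = 0.000468) and 2.32-fold in young muscle (adjusted p = 0.00244).

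Of the 9 members, 9 were called higher at day 7 in old BI01 muscle, where 33.2% of all genes were called higher and 28.3% lower. In old vehicle muscle 9 were called higher, where 34.4% of all genes were called higher and 29.8% lower. In young muscle 7 were called higher, all but C3 and Cfb, where 33.3% of all genes were called higher and 27.5% lower. The median log2 fold change of the members was 4.10, 3.20 and 1.91 in old BI01, old vehicle and young muscle, against 0.13, 0.14 and 0.17 over all genes tested. The old BI01 and old vehicle comparisons share the 4 old uninjured libraries. The difference in day 7 response between old vehicle and young muscle was called for none of the members and for 7.70% of all genes. That count of 0 in edgeR stood beside 2 members at an unadjusted p under 0.05, C3 and Cfb, and 0 called by DESeq2 and by limma voom.

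**Figure D2:**
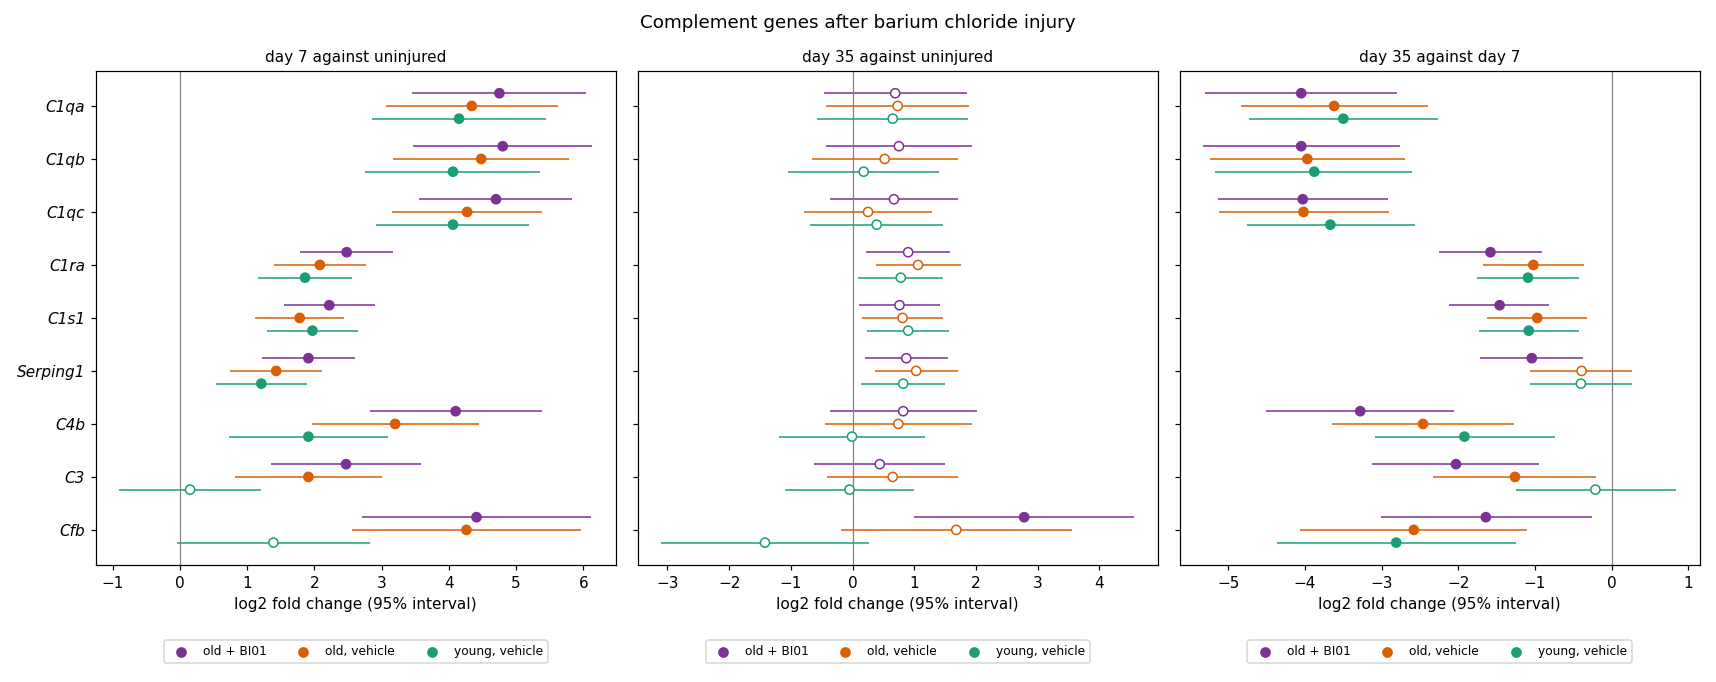
Log2 fold change of each complement gene (horizontal axis, edgeR estimate with 95% interval) for day 7 against uninjured, day 35 against uninjured and day 35 against day 7, in old BI01, old vehicle and young muscle. Filled points are called and open points are not, and old BI01 and old vehicle muscle share the same uninjured libraries. The C1q genes lie between 4.06 and 4.80 at day 7, and Cfb of old BI01 muscle is the 1 filled point of the middle panel.

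Most members were called lower at day 35 than at day 7, and the C1q genes changed by the most. C1qa was at 27.8, 5.15, 13.6 and 11.3 CPM in old BI01 muscle at day 35, against 299, 240.0, 221 and 202 CPM at day 7. Old vehicle muscle had it at 17.8, 22.3, 9.92 and 9.07 CPM at day 35, and young muscle had it at 11.3, 11.1, 6.50 and 7.68 CPM. All of these lay under the lowest day 7 library of their arm. The log2 change of the C1q genes between day 7 and day 35 was -4.05, -4.05 and -4.03 for C1qa, C1qb and C1qc in old BI01 muscle, -3.62, -3.97 and -4.02 in old vehicle muscle and -3.50, -3.88 and -3.67 in young muscle (adjusted p at most 2.07e-05). C4b fell by 3.28 in old BI01 muscle (adjusted p = 4.51e-05), by 2.46 in old vehicle muscle (adjusted p = 0.000723) and by 1.92 in young muscle (adjusted p = 0.00603) on the same scale.

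C1s1 fell by 1.46, 0.97 and 1.08 on the log2 scale in old BI01, old vehicle and young muscle (adjusted p = 0.000301, 0.00984 and 0.00509). C1ra fell by 1.58, 1.02 and 1.09 (adjusted p = 0.000166, 0.00801 and 0.00584). These falls in old vehicle muscle leaned on library 9 at day 7, without which C1s1 changed by -0.55 (adjusted p = 0.114) and C1ra by -0.63 (adjusted p = 0.0849). Serping1 was at 93.3, 45.5, 75.1 and 89.8 CPM in old BI01 muscle at day 35, against 151, 74.1, 151 and 249 CPM at day 7, so that only its lowest day 7 library lay within the range of day 35. It fell by 1.04 there (SE 0.33, adjusted p = 0.00828), a call that was lost without library 4 of day 7 (-0.73, adjusted p = 0.0633). In old vehicle muscle its log2 change was -0.39 (SE 0.33, adjusted p = 0.305) and in young muscle -0.40 (SE 0.33, adjusted p = 0.310), and scaling by library size alone called both lower (-1.33, adjusted p = 0.000631, and -1.06, adjusted p = 0.00566).

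C3 fell by 2.03 between day 7 and day 35 in old BI01 muscle (SE 0.53, adjusted p = 0.00205) and by 1.26 in old vehicle muscle (SE 0.52, adjusted p = 0.0387), and its log2 change in young muscle was -0.21 (SE 0.51, adjusted p = 0.754). The call in old vehicle muscle was lost without library 6 (-1.17, adjusted p = 0.0898), library 8 (-1.06, adjusted p = 0.115) or library 9 (-1.04, adjusted p = 0.118) of day 35, and without library 9 (-0.91, adjusted p = 0.156) or library 10 (-1.20, adjusted p = 0.0730) of day 7. Without library 7 of day 35, which held 105 CPM against 24.1 to 39.5 CPM in the other 3, the change was -1.96. Cfb fell by 1.64 in old BI01 muscle (SE 0.68, adjusted p = 0.0402), by 2.58 in old vehicle muscle (SE 0.73, adjusted p = 0.00309) and by 2.81 in young muscle (SE 0.77, adjusted p = 0.00251). The call in old BI01 muscle was lost without library 6, 7 or 8 of day 35 or library 3 or 4 of day 7 (adjusted p = 0.101, 0.113, 0.0688, 0.0732 and 0.122). Cfb changed in old vehicle muscle by -3.62 without library 7 of day 35, and in young muscle by -3.75 without library 1 of day 35. Between day 7 and day 35, 9 members were called lower in old BI01 muscle, 8 in old vehicle muscle and 7 in young muscle, where 29.4%, 31.4% and 29.3% of all genes were called lower.

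Against uninjured muscle, most members differed less at day 35 than at day 7. C1ra, C1s1 and Serping1 averaged 13.0 ± 4.63, 25.4 ± 9.22 and 75.9 ± 21.8 CPM in old BI01 muscle at day 35, 14.5 ± 4.10, 26.2 ± 1.53 and 84.9 ± 27.0 CPM in old vehicle muscle at day 35, and 6.96 ± 2.53, 15.0 ± 3.80 and 41.5 ± 15.4 CPM in old uninjured muscle (SD, n = 4 each). In young muscle they averaged 11.8 ± 3.03, 24.8 ± 6.89 and 72.2 ± 18.3 CPM at day 35, against 6.96 ± 2.03, 13.4 ± 3.36 and 41.1 ± 12.9 CPM uninjured. In old vehicle muscle all libraries at day 35 lay above all uninjured ones for these 3 genes, and in young muscle this held for C1ra and C1s1. In old BI01 muscle library 7 fell within the uninjured range for each. Their log2 fold changes were 0.90, 0.76 and 0.87 in old BI01 muscle (adjusted p = 0.101, 0.160 and 0.107), 1.06, 0.81 and 1.03 in old vehicle muscle (adjusted p = 0.0570, 0.164 and 0.0626) and 0.78, 0.90 and 0.82 in young muscle (adjusted p = 0.122, 0.0604 and 0.0922).

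None of these 9 differences was called. C1ra and C1s1 were called in old BI01 muscle without its library 7 (1.13, adjusted p = 0.0298, and 1.00, adjusted p = 0.0438). C1ra and Serping1 were called in old vehicle muscle without library 6 of the old uninjured group (1.28, adjusted p = 0.0387, and 1.24, adjusted p = 0.0469), and C1s1 and Serping1 in young muscle without library 4 of the young uninjured group (1.07, adjusted p = 0.0385, and 1.02, adjusted p = 0.0491). The C1q genes, C4b and C3 overlapped with uninjured muscle in every arm, with log2 fold changes between -0.05 and 0.82. For the C1q genes in old muscle these values moved most without library 7 of the old uninjured group, to 1.56, 1.77 and 1.52 in old BI01 muscle and 1.59, 1.53 and 1.10 in old vehicle muscle. C3 changed by -0.05 in old vehicle muscle without library 7 of day 35, against 0.65 with it.

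Cfb was the 1 member called at day 35 against uninjured muscle, in old BI01 muscle. It was at 0.288, 0.224, 0.469 and 0.717 CPM there, 24 counts in all, against the 4 counts of old uninjured muscle, and the groups did not overlap. The log2 fold change was 2.78 (SE 0.87, adjusted p = 0.0441). The call was lost without any 1 of the 4 old uninjured libraries or of libraries 6, 8 and 9 of old BI01 muscle (adjusted p = 0.0640 to 0.146), and with limma voom (2.36, adjusted p = 0.128). At day 35, 1 member was called higher in old BI01 muscle, where 4.53% of all genes were called higher and 3.56% lower. None was called in old vehicle muscle, where 3.17% were called higher and 2.47% lower, or in young muscle, where 7.06% were called higher and 8.66% lower. Beside these counts of 0 in edgeR, 3 members had an unadjusted p under 0.05 in old vehicle and 3 in young muscle, DESeq2 called 2 in old vehicle and 1 in young muscle, and limma voom called 0 in both. The day 35 response of old against young muscle was called for 0 members, and for 0% of all genes, with 1 member at an unadjusted p under 0.05 and 0 called by DESeq2 and by limma voom. That member was Cfb, with a difference of 3.10 (SE 1.24, adjusted p = 0.424).

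The largest differences between the ages lay in uninjured muscle, in C3 and Cfb, and none passed the main test. C3 was at 53.3, 30.0, 26.2 and 15.6 CPM in old uninjured muscle, against 60.0, 76.4, 83.1 and 93.4 CPM in young uninjured muscle, with every old library under every young one. The log2 fold change of -1.33 (SE 0.52, 95% interval -2.40 to -0.25) did not pass the test over all genes (adjusted p = 0.0932), and it passed in a fit to the 2 groups alone (-1.35, adjusted p = 0.0316). Cfb was likewise lower in every old uninjured library, with 4 counts in all against 16 in young uninjured muscle. Its log2 fold change was -2.53 (SE 0.90, adjusted p = 0.0580 in edgeR), and DESeq2 called it (-2.72, adjusted p = 0.0349). Adipocyte markers summed to 0.557 to 6.08 CPM in old uninjured muscle. They summed to 1.01, 0.801, 4.23 and 48.5 CPM in libraries 1, 2, 3 and 4 of young uninjured muscle. The group medians of this sum were 2.15 CPM in old and 2.62 CPM in young uninjured muscle. The part of adipocyte content in the values of C3 and Cfb was not tested.

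C4b, C1qa, C1s1, C1ra and Serping1 overlapped between the ages in uninjured muscle, with log2 fold changes of -0.75 (adjusted p = 0.434), 0.62 (adjusted p = 0.539), 0.17, 0.00 and 0.02. The C1q genes took another sign without library 7 of the old uninjured group, at -0.25, -0.70 and -0.39. At day 7 the C1q genes were on average higher in old vehicle than in young muscle by 0.81, 0.73 and 0.67 on the log2 scale for C1qa, C1qb and C1qc, and did not pass the test (adjusted p = 0.430, 0.496 and 0.465). Library 10 of the old group, at 72.1 CPM of C1qa, lay among the young libraries, which ran from 60.7 to 126 CPM. At day 35 the 3 genes differed by 0.69, 0.65 and 0.32. C3 differed by 0.43 at day 7 and by -0.63 at day 35 (adjusted p = 0.689 and 0.638), and by -1.32 at day 35 without library 7 of the old group. No member was called between old and young muscle at any state, where 13.4% of all genes were called uninjured, 2.43% at day 7 and 3.51% at day 35. Of the 9, 2 had an unadjusted p under 0.05 in uninjured muscle and 0 at day 7 and day 35, DESeq2 called 1, 0 and 0, and limma voom called 0 in each.

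BI01 made no called difference to any member in old muscle. At day 7 every member was on average higher in BI01 than in vehicle muscle, by 0.15 to 0.90 on the log2 scale, and the libraries overlapped for each of them. The C4b difference of 0.90 was the largest and had a 95% interval of -0.22 to 2.02 (adjusted p = 0.754). C1qa differed by 0.40 (-0.69 to 1.50), C1s1 by 0.45 (-0.19 to 1.08), C3 by 0.56 (-0.49 to 1.60) and Serping1 by 0.49 (-0.18 to 1.15). These intervals include no difference and also rises of more than 2-fold. At day 35 the differences ran from -0.21 for C3 to 1.09 for Cfb (95% interval -0.46 to 2.64), with an adjusted p of 1.00 for each. Those of C3 and Cfb moved to 0.49 and 2.13 without library 7 of the vehicle group. Of the 9 members 0 were called at either day, as were 0% of all genes at day 7 and 0% at day 35, 0 had an unadjusted p under 0.05, and DESeq2 and limma voom called 0. The change in the BI01 difference between day 7 and day 35 was called for 0 members and 0% of all genes, with 0 members at an unadjusted p under 0.05 and 0 called by DESeq2 and by limma voom.

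**Figure D3:**
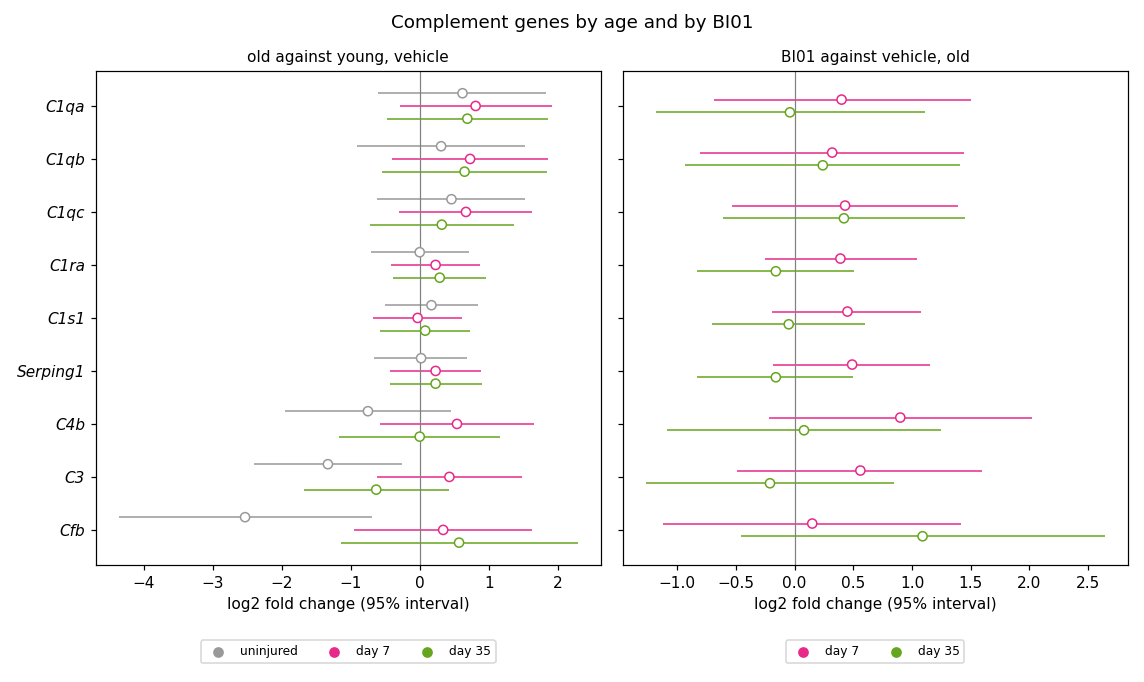
Log2 fold change of each complement gene (horizontal axis, edgeR estimate with 95% interval) for old against young vehicle muscle in 3 states and for BI01 against vehicle in old muscle at 2 days. All points are open, as none was called, and the uninjured values of C3, -1.33, and Cfb, -2.53, lie farthest from 0.

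Within groups, the same libraries tended to rank high or low for related members. At day 7 in old BI01 muscle, library 1 was highest for the 3 C1q genes and C4b, whereas library 4 was lowest for the C1q genes and highest for C3, Cfb, C1s1, C1ra and Serping1. In old vehicle muscle at day 7, library 7 was highest for the C1q genes and lowest for C3, C4b, C1s1 and C1ra, and library 9 was highest for the 6 other genes. Library 7 of that group also had the highest sum of 14 macrophage markers of the group, 3123 CPM, and the lowest sum of fast fibre markers of all libraries, 9942 CPM. Library 4 of the BI01 group had the lowest sum of macrophage markers of its group, 1781 CPM. At day 35, library 7 of old BI01 muscle was lowest of its group for all 9 members, and it had the lowest sums there of macrophage markers, 103 CPM, and of 11 fibroblast markers, 709.7 CPM. The part of cell content in these differences between libraries was not tested.

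Taking each member's mean log2 CPM in the 8 groups around its own average gave profiles that could be set side by side, with the root mean square (RMS) difference between a pair as the measure. The 3 C1q genes differed from each other by 0.13 to 0.19. C1ra and C1s1 differed by 0.12, and each of them from Serping1 by 0.30 and 0.27. C4b lay closer to the C1q genes, at 0.85 to 0.91, than C3 did, at 1.61 to 1.67. C3 was nearer to Serping1, at 0.57, and Cfb to C4b, at 0.58. All 9 had their highest mean in old BI01 muscle at day 7. From the highest to the lowest group mean the C1q genes covered 5.42 to 5.69 on the log2 scale, C4b 4.23, Cfb 3.03, C1ra 2.44, C3 2.39, C1s1 2.27 and Serping1 1.86.

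**Figure D4:**
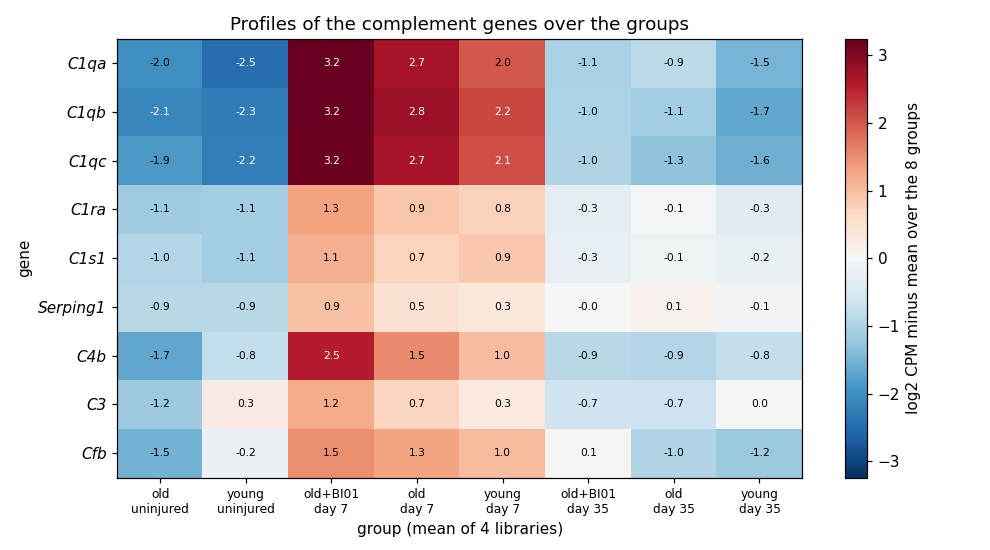
Mean log2 CPM of the 4 libraries of each group minus the mean over the 8 groups (colour and printed value), for each complement gene (rows) and group (columns). The C1q rows look alike and span the most, and old BI01 muscle at day 7 is the highest column in every row.

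Among 9865 protein-coding genes outside the pathway lists, the 3 with the profile nearest to each member over the 8 groups are given. Hpgds, a prostaglandin D synthase, was nearest to C1qa and C1qb (RMS 0.16 and 0.12), followed by Pld4 and Hpse for C1qa (0.21 and 0.23) and by Tlr7, a receptor for single-stranded RNA, and Clec4a1 for C1qb (0.17 and 0.19). For C1qc they were Epsti1, an interferon-induced gene, at 0.17, and the Fc receptor genes Fcer1g and Fcgr2b at 0.19 each. C4b was nearest to Clec10a, a lectin of macrophages and dendritic cells, at 0.19, then Cebpa and Ifi207 at 0.29 and 0.32. C3 was nearest to Mt1, a metallothionein, at 0.18, then Klhl5 and Tor3a at 0.28 and 0.29. C1ra was nearest to Rnase4, Pck2 and Tlnrd1 (0.11, 0.14 and 0.14), C1s1 to Pck2, Tspan5 and Eid1 (0.13, 0.13 and 0.14), and Serping1 to Cd302, Cygb and Agtrap (0.10, 0.12 and 0.14). Cfb had the least close neighbours, Capg, Gng2 and Entpd1, at 0.36, 0.38 and 0.39.

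Levels between genes were compared per kb of the gene length in the table. Serping1 led in uninjured muscle, at 17.9 CPM per kb in old and 17.7 CPM per kb in young muscle. C3 was at 6.08 ± 3.09 CPM per kb in old uninjured muscle (SD, n = 4), on average under C1qa and C1qb. That order leans on library 7, at 20.3 CPM of C1qa and 25.6 CPM of C1qb. The others of the group held at most 6.87 and 7.44 CPM. In young uninjured muscle C3 was at 15.2 CPM per kb, where it was second. C1qa and C1qb were at 8.50 ± 7.67 and 9.58 ± 9.58 CPM per kb in old uninjured muscle and at 5.63 and 7.86 CPM per kb in young uninjured muscle. C1qc was at 4.12 CPM per kb in old and 3.06 CPM per kb in young uninjured muscle. At day 7 the C1q genes led, with C1qb at 271, 217 and 131 CPM per kb and C1qa at 231, 175 and 99.7 CPM per kb in old BI01, old vehicle and young muscle. C1qc followed at 109, 80.7 and 50.8 CPM per kb and Serping1 at 67.3, 48.0 and 40.9 CPM per kb. Within a library C1qb exceeded C1qa per kb in 12 of 12 libraries at day 7, by ratios of 1.08 to 1.38, and in 15 of 20 libraries without injury or at day 35. By day 35 Serping1 led again, at 32.7, 36.5 and 31.1 CPM per kb. C4b was at 22.8, 12.2 and 8.43 CPM per kb at day 7 and Cfb at 0.474, 0.427 and 0.336 CPM per kb.

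Markers of macrophages and of fibroblasts, the cell types best known for making these proteins outside the liver, changed with injury as well. Of 14 macrophage markers, 14 were called higher at day 7 in old BI01 muscle and 13 each in old vehicle and young muscle. Of all genes, 33.2%, 34.4% and 33.3% were called higher there. Their sum ran from 1781 to 3395 CPM in old BI01 muscle and from 1218 to 3123 CPM in old vehicle muscle at day 7, against 76.3 to 315 CPM in old uninjured muscle, and from 866 to 1632 CPM in young muscle at day 7, against 50.6 to 204 CPM uninjured. Every marker of both lists had counts in each group. The sum of the C1q genes over the macrophage sum had a median of 0.299 in old BI01 muscle and 0.253 in old vehicle muscle at day 7, against 0.144 in old uninjured muscle, and of 0.256 in young muscle at day 7, against 0.159 uninjured. The ratio of every old BI01 library at day 7, at least 0.271, lay above those of old uninjured muscle, at most 0.203. The lowest old vehicle library at day 7, at 0.191, lay within the old uninjured range, and the young groups, 0.219 to 0.289 at day 7 and 0.0873 to 0.267 uninjured, overlapped too. At day 35 none of the 14 macrophage markers was called in any arm, and the ratio had medians of 0.186, 0.197 and 0.181 in old BI01, old vehicle and young muscle.

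Of 11 fibroblast markers, 10, 9 and 8 were called higher at day 7 in old BI01, old vehicle and young muscle, and 7, 9 and 6 at day 35. Of all genes, 33.2%, 34.4% and 33.3% were called higher at day 7 and 4.53%, 3.17% and 7.06% at day 35. Their sum was 7319 to 9631 CPM in old BI01 muscle and 8403 to 12720 CPM in old vehicle muscle at day 7, against 373 to 871 CPM in old uninjured muscle, and 6928 to 10292 CPM in young muscle at day 7, against 477 to 841 CPM uninjured. The sum of C1ra and C1s1 over the fibroblast sum had a median of 0.0124 in old BI01 muscle and 0.00684 in old vehicle muscle at day 7, against 0.0335 in old uninjured muscle, and of 0.00819 in young muscle at day 7, against 0.0300 uninjured. Such a sum weighs the most abundant markers most. The median log2 fold change of the 11 markers at day 7 was 2.44, 2.28 and 2.09 in old BI01, old vehicle and young muscle. That of C1s1 was 2.22, 1.78 and 1.97, and that of C1ra 2.48, 2.08 and 1.86. Serping1 over the sum of C1ra and C1s1 had medians of 1.43, 1.37 and 1.20 at day 7 in old BI01, old vehicle and young muscle, against 1.86 and 2.11 in old and young uninjured muscle. All 15 genes of an interferon response list were called higher at day 7 in each arm. In uninjured muscle they summed to 53.1 to 114 CPM in old and to 34.3 to 62.3 CPM in young muscle. Of the 15, 3 were called either way between the ages in uninjured muscle, all of them higher in old muscle, against 13.4% of all genes called either way. The part of these cell types and of interferon in the members' changes was not tested.

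**Figure D5:**
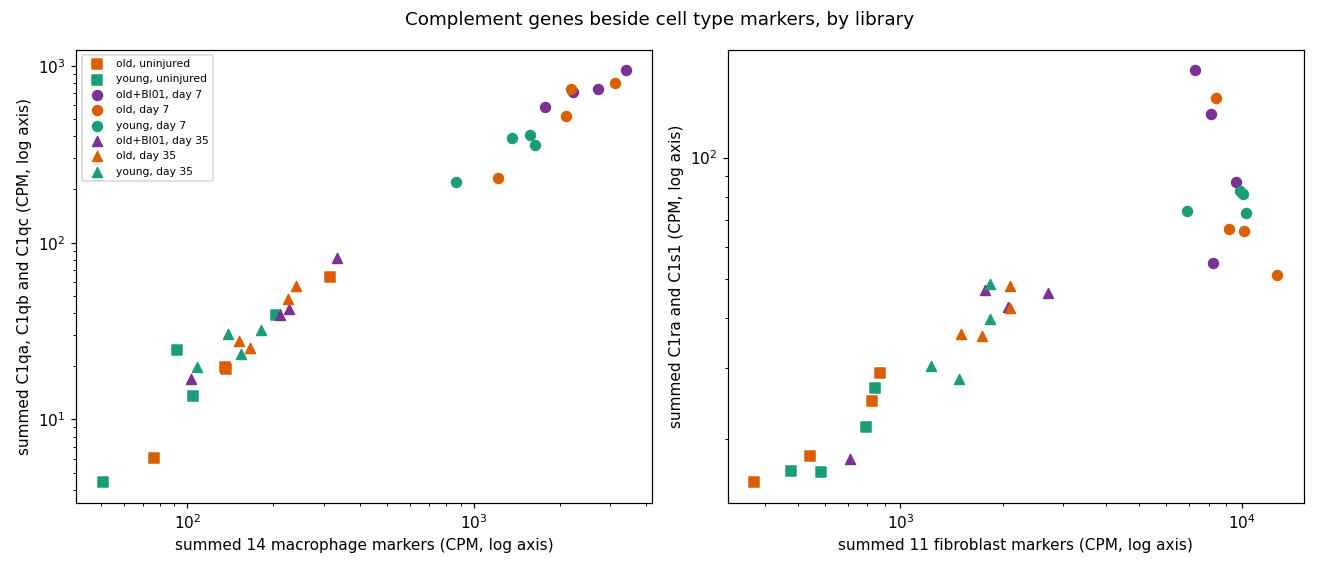
Summed CPM of the 3 C1q genes against the sum of 14 macrophage markers (left) and of C1ra and C1s1 against the sum of 11 fibroblast markers (right), on log axes, 1 point per library, with colours for the arms and shapes for the state. On the left the libraries follow 1 band from 50.6 to 3395 CPM of macrophage markers, and on the right the day 7 libraries form a group of their own above 6928 CPM of fibroblast markers.

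The other genes of the pathway, 50 in 4 lists of which 33 could be tested, were counted in the same way. At day 7, 18 were called higher and 7 lower in old BI01 muscle, 16 and 8 in old vehicle muscle, and 17 and 3 in young muscle. The shares of all genes were 33.2% higher and 28.3% lower, 34.4% and 29.8%, and 33.3% and 27.5%. Of the receptors, 10, 9 and 8 of 10 tested were called higher in old BI01, old vehicle and young muscle, with medians of 3.68, 3.72 and 3.44 on the log2 scale, against 0.13, 0.14 and 0.17 over all genes. C3ar1, the receptor for the C3 fragment C3a, averaged 91.6 CPM in old BI01 muscle and 97.2 CPM in old vehicle muscle at day 7, against 3.28 CPM in old uninjured muscle, and 52.2 CPM in young muscle at day 7, against 1.85 CPM uninjured. It rose by 4.74, 4.83 and 4.81 on the log2 scale (adjusted p = 1.11e-06, 7.89e-07 and 2.34e-06). C5ar1, the receptor for C5a, averaged 20.9 and 25.5 CPM in old BI01 and old vehicle muscle at day 7, against 0.513 CPM in old uninjured muscle, and 11.3 CPM in young muscle at day 7, against 1.03 CPM uninjured. Its log2 rises were 5.37, 5.66 and 3.51.

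The integrin genes that form receptors for C3 fragments moved the same way. Itgam rose by 3.75, 3.81 and 3.37 on the log2 scale in old BI01, old vehicle and young muscle, Itgax by 3.75, 3.63 and 5.38, and their shared partner Itgb2 by 4.01, 4.08 and 3.61. Lrp1, a large endocytic receptor of many cell types, averaged 710.0 CPM in old vehicle muscle at day 7, against 47.1 CPM in old uninjured muscle (log2 3.91, adjusted p = 5.17e-10). Between day 7 and day 35 C3ar1 fell by 5.19, 5.21 and 5.14 in old BI01, old vehicle and young muscle, to 2.51, 2.59 and 1.46 CPM (adjusted p = 7.84e-07, 5.65e-07 and 1.42e-06). Cd93, a surface protein of endothelial and myeloid cells once described as a C1q receptor, averaged 77.0 CPM in old BI01 muscle and 78.4 CPM in old vehicle muscle at day 35, against 32.8 CPM in old uninjured muscle (adjusted p = 0.000667 and 0.000673). It was higher in old than in young muscle at day 35, 78.4 against 40.8 CPM (log2 0.94, SE 0.22, adjusted p = 0.0128), a call lost without library 2 of the young group (0.86, adjusted p = 0.0681).

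Among other classical and lectin genes, 6, 5 and 6 of 8 tested were called higher at day 7 in old BI01, old vehicle and young muscle. Colec12, a collectin of the vessel wall, rose by 3.40, 3.34 and 3.31 on the log2 scale, and C1s2 and C1rb, the near copies, stayed at 0.672 CPM or less in every library. Of 5 alternative and terminal genes tested, 1 was called higher in each arm, with 0, 1 and 1 lower. Across all genes 33.2%, 34.4% and 33.3% were called higher and 28.3%, 29.8% and 27.5% lower in the 3 arms. Of the regulators, 1 of 10 tested was called higher and 7 lower in old BI01 muscle, 1 and 6 in old vehicle muscle, and 2 and 2 in young muscle. With scaling by library size alone these counts were 3 and 2, 2 and 2, and 5 and 2. Most of the lower calls in old muscle were thus not made under that setting. With median-of-ratios factors in place of TMM, Cr1l, Cd59a, Cd46, Cd55 and Cd59b were still called lower in old BI01 muscle (edgeR adjusted p = 0.000856 to 0.0457). In old vehicle muscle Cd59a and Cd46 were still called lower (adjusted p = 0.00364 and 0.0037), and Cr1l and Cd55 were not (adjusted p = 0.0511 and 0.0732). Clu, clusterin, an inhibitor of the terminal complex, fell under each of these scalings. It averaged 11.9 CPM in old BI01 muscle and 6.18 CPM in old vehicle muscle at day 7, against 57.9 CPM in old uninjured muscle, and 9.34 CPM in young muscle at day 7, against 71.9 CPM uninjured, with log2 changes of -2.29, -3.23 and -2.94. It was still lower at day 35, at 24.1, 23.6 and 24.3 CPM (adjusted p = 0.00213, 0.00206 and 0.000143).

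Cd55, which takes apart the C3-cleaving enzymes on the cell surface, was the 1 gene of the pathway called between the ages at day 7. It ran from 13.7 to 57.8 CPM in old vehicle muscle at day 7, against 91.1 to 158 CPM in young muscle (log2 -1.42, SE 0.31, adjusted p = 0.0190). The call was lost without library 7 of the young group (-1.20, adjusted p = 0.154) or library 7 of the old group (-1.13, adjusted p = 0.0669), with no filter (-1.41, adjusted p = 0.0522) and in a fit to the 2 groups alone (-1.40, adjusted p = 0.324). Against uninjured muscle Cd55 rose in young muscle at day 7 (log2 0.96, adjusted p = 0.00942, and 0.66, adjusted p = 0.0768 without library 7). In old vehicle muscle it fell by 0.73 (adjusted p = 0.0424), a value of 0.23 with scaling by library size alone, and the call was lost without library 7 or 9 of the uninjured group (adjusted p = 0.0646 and 0.109) or library 7 or 8 of day 7 (adjusted p = 0.158 and 0.0817), and in 5 of the other alternatives, DESeq2 among them (adjusted p = 0.0620 to 0.451). At day 35 Cd55 was higher than uninjured in young muscle (0.95, adjusted p = 0.0362), a call lost without any 1 library of day 35 or library 1, 3 or 4 of the uninjured group (adjusted p = 0.0527 to 0.114). Cd46, another inhibitor of C3 activation, averaged 5.90 CPM in young muscle at day 35, against 2.55 CPM uninjured (1.21, adjusted p = 0.0393), a call lost without library 1 or 3 of the uninjured group or library 1 or 4 of day 35 (adjusted p = 0.0989 to 0.164). Vtn, vitronectin, averaged 25.4 and 26.5 CPM in old BI01 and old vehicle muscle at day 35, against 12.6 CPM in old uninjured muscle (adjusted p = 0.0416 and 0.0379). Both calls were lost without any 1 of the 4 old uninjured libraries, and without library 6, 8 or 9 of old BI01 or library 7, 8 or 9 of old vehicle muscle at day 35 (adjusted p = 0.0558 to 0.202 over all of these). Testing with no filter also ended the day 35 calls of Cd55 and Vtn (adjusted p = 0.0933 to 0.112), and limma voom those of Cd55, Cd46 and, in old BI01 muscle, Vtn (adjusted p = 0.0549 to 0.0585).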

How the data were processed

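RNA of whole tibialis anterior was extracted with a Qiagen miRNeasy kit and sequenced as mRNA libraries, per the labels' protocols. The authors deposited 1 table of raw read counts per gene for the 32 libraries. HISAT2 and mm10 are named in the submitters' processing notes; the sources used here name no counting tool, annotation or use of strand, so overlapping antisense reads cannot be told apart. Table columns were matched to groups by name; their numbers are used only as library names.

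Counts of 14129350 to 30439358 per library entered edgeR 4.0.16 in R 4.3.3 (TMM, filterByExpr, robust quasi-likelihood fit, 1 mean for each of 8 groups), with 14 comparisons of 2 groups and 3 differences of differences, tested on simulated data first. CPM is per 1000000 counts of the TMM-scaled total of the 17121 genes tested. The 9 members and all lists were chosen with earlier results of these data known. Of the 50 other pathway genes, up to 4 per comparison were named, the called ones with the largest log2 fold change, at least 5 CPM and no overlap, besides the near copies; Cd55 at day 7 was followed over the arms after its values were seen. Likeness used log2 CPM with a prior count of 2 and genes of at least 5 CPM on average. In the 48 pairs of libraries within groups, counts differed by far more than sampling noise (mean chi-square per gene at least 12.6), so none was counted as a duplicate. Alternatives were library size alone, median-of-ratios factors, no filter, at least 1 CPM in 4 libraries, DESeq2 1.42.0, limma voom 3.58.1, a fit to the groups compared, leaving out each library and, added after seeing the data, a block on column numbers.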

Additional observations from a re-analysis of the deposited data

Results flagged for a closer look

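Of 72 sets of 4 libraries, 1 for each member and group, 3 held a library that stood apart from the other 3 of its group by more than the Dixon test allows at 95%, and chance gives about 1 in 20. C4b was at 22.3 CPM in library 4 of the young uninjured group, against 8.74 to 10.6 CPM in the others. Cfb was at 1.75 CPM in library 6 of young muscle at day 7, against 0.612 to 0.751 CPM in the others, on 84 counts in the group. C1s1 was at 11.6 CPM in library 7 of old BI01 muscle at day 35, against 28.3 to 31.2 CPM in the others, and that library was lowest of its group for all 9 members.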

How the results depend on the processing

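The numbers in the sample titles could not be tied to the table columns, whose own numbers recur across some groups and are not stated to pair animals. In 6 comparisons of 2 groups with at least 3 such numbers in common, same-numbered libraries deviated from their group means with correlations over the genes tested of -0.17 to 0.161, in none of the 6 above 0.1 for every pair, so the numbers were not taken as a pairing. All 6 libraries were closest to their own number in old vehicle muscle at day 7 against uninjured. In young muscle at day 35 against uninjured 6 of 8 were, with 3 of the 4 pairs above 0.1. In old vehicle muscle 4 of 8 were at day 35 against uninjured, and 0 of 6 between day 7 and day 35. In old BI01 muscle at day 35, 0 of 8 were against old uninjured and 1 of 8 against vehicle, groups that differ in treatment. These values do not exclude a pairing within the vehicle groups. A replicate block on these numbers, chosen after seeing the data, was run for these 6 and for the day 35 response. It called 2 members in old vehicle muscle at day 35, C1ra and Serping1, and 0 in old BI01 muscle at day 35, where Cfb was at an adjusted p of 0.0807 (log2 2.67), and 7 of the 8 between day 7 and day 35 in old vehicle muscle, all but C3. The sign of C4b in young muscle at day 35 (0.07) and of C3 for BI01 against vehicle at day 35 (0.07) changed under the block. Among the other pathway genes it ended the day 35 calls of Vtn (adjusted p = 0.0602 and 0.0734). The counts of members called at day 7 changed by less than 1.5 times under every alternative run. In the 3 comparisons with few or no calls at day 35 and in uninjured muscle, other settings gave other counts. Library size alone called 3 members in young and 2 in old vehicle muscle at day 35. DESeq2 called 1 in young muscle at day 35, 2 in old vehicle muscle at day 35 and 1 between the ages in uninjured muscle, and a fit to only the groups compared called 1, 2 and 1. In old BI01 muscle at day 35, 0 were called with no filter, with limma voom and in a fit to only the groups compared. With 1 library left out at a time, the count at day 35 against uninjured ran from 0 to 3 in old BI01 muscle, from 0 to 2 in old vehicle muscle and from 0 to 2 in young muscle, and between day 7 and day 35 in old vehicle muscle from 5 to 8.

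Every member's log2 fold change that changed sign was one that had not been called, whereas the called Cd55 value in old vehicle muscle at day 7 changed sign to 0.23 with library size alone. Between the ages in uninjured muscle C1ra was -0.04 with median-of-ratios factors, -0.05 with DESeq2 and -0.02 in the groups alone, and Serping1 -0.03, -0.03 and -0.01, and -0.01 with limma voom. With library size alone C3 and C4b were 0.15 and 0.21 in young muscle at day 35, C1s1 and C4b 0.27 and 0.05 between the ages at day 7 and day 35, C1qa -0.10 for the day 35 response, and C1qb and C1qc 0.02 and 0.08 for the change in the BI01 difference. C4b in young muscle at day 35 was 0.01 with no filter and 0.09 with limma voom, and between the ages at day 35 it was 0.01 with median-of-ratios factors and 0.01 with DESeq2. C3 was 0.01 for BI01 against vehicle at day 35 with limma voom, and C1qc 0.00 for the change in the BI01 difference with no filter.

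With 1 library left out at a time, the values between the ages in uninjured muscle ran from -0.25 to 1.20 for C1qa, -0.70 to 0.84 for C1qb, -0.39 to 0.94 for C1qc, -0.22 to 0.15 for C1ra and -0.19 to 0.22 for Serping1. At day 7 they ran from -0.06 to 0.82 for Cfb, -0.44 to 0.13 for C1s1, -0.16 to 0.41 for C1ra and -0.13 to 0.38 for Serping1, and at day 35 from -0.57 to 0.21 for C4b, -0.47 to 1.51 for Cfb, -0.03 to 0.28 for C1s1 and -0.00 to 0.36 for Serping1. In young muscle C3 ran from -0.15 to 0.39 at day 7, -0.58 to 0.21 at day 35 and -0.73 to 0.10 between these days, and at day 35 C1qb ran from -0.17 to 0.71 and C4b from -0.15 to 0.40. In old vehicle muscle at day 35 C1qc ran from -0.06 to 1.10 and C3 from -0.05 to 1.03. For BI01 against vehicle the ranges were -0.15 to 0.55 for Cfb at day 7, and at day 35 -0.56 to 0.24 for C1qa, -0.24 to 0.56 for C1qb, -0.43 to 0.49 for C3, -0.48 to 0.65 for C4b, -0.16 to 0.19 for C1s1, -0.27 to 0.07 for C1ra and -0.29 to 0.08 for Serping1. For the day 7 response they were -0.38 to 1.06 for C1qa, -0.11 to 1.44 for C1qb, -0.27 to 1.06 for C1qc, -0.17 to 0.44 for C1ra and -0.15 to 0.42 for Serping1. For the day 35 response they were -0.50 to 0.94 for C1qa, -0.19 to 1.35 for C1qb, -0.62 to 0.71 for C1qc, -0.00 to 1.22 for C3, -0.26 to 0.10 for C1s1 and -0.03 to 0.42 for Serping1, and for the change in the BI01 difference -0.55 to 0.24 for C1qb and -0.37 to 0.25 for C1qc. The cause was not tested. Cfb rests on 4 to 148 counts per group, so its values carry the most counting error of the 9.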
